A study of Mus musculus with 20 samples.

Results

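The 9 genes described here are members of the renin-angiotensin system (RAS) or mark the cells that make renin: Ren1, Agt, Ace, Agtr1a, Enpep, Mme, Anpep, Atp6ap2 and Akr1b7. They were picked by gene name from the 15780 genes listed in the kidney count tables, and all 9 were among the 13990 genes tested. Kidney RNA of 20 female NCr nude mice was sequenced, with 5 mice in each of 4 groups. NCr nude mice lack a thymus and so have few T cells. Mice of the EIC group received 6 intravenous injections of engineered immune complexes, which are made of human galactose-deficient IgA1 and a recombinant human IgG autoantibody against it, and were gavaged with vehicle. Mice of EIC + S60 and EIC + S120 received the same injections and daily gavage with sparsentan at 60 or 120 mg/kg. Control mice were injected with PBS and gavaged with vehicle. All mice were 7 weeks old at purchase, gavage ran for 11 days, and kidneys were taken on day 12. The complexes are human proteins, and no group received sparsentan without them. Each library is 1 mouse and is named by its group and mouse number.

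In the RAS, renin, an aspartyl protease secreted by juxtaglomerular cells of the renal afferent arteriole, cuts angiotensinogen to angiotensin I, and angiotensin-converting enzyme removes a dipeptide from it to give angiotensin II. Angiotensin II acts through the type 1 receptor to constrict vessels and retain sodium, and through the same receptor on juxtaglomerular cells it restrains renin transcription and release, a feedback loop that type 1 receptor blockers interrupt. Sparsentan blocks both the endothelin type A receptor and the angiotensin II type 1 receptor. The comparisons below therefore address how transcripts of each step of the system stood after immune complexes alone and after added receptor blockade.

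Total counts ranged from 12662345 to 38651781 per library, and those of Control 651, Control 652 and EIC + S60 75 were over 1.5 times the median of the 20. Control 653 stood apart from the other libraries: its summed adipocyte markers reached 411 CPM (counts per 1000000 of the TMM-scaled library total), against 23.4 to 77.3 CPM in the other 19 libraries. Its proximal tubule markers had the lowest sum of the 20 libraries, 13508 CPM against 16472 CPM or more in the other 19. Results that moved without Control 653 are given below with and without that library. Kidney identity was clear in every group, with summed proximal tubule markers of 13508 CPM or more. Calls are at an adjusted p under 0.05 over all genes tested by edgeR's quasi-likelihood test, LFC is the log2 fold change fitted by edgeR, and SEs and 95% intervals come from limma-trend.

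Ren1 encodes renin. Its transcript stood at 136, 169, 204, 231 and 214 CPM in the 5 EIC mice, at 805, 514, 837, 440.3 and 756 CPM in the EIC + S60 mice, and at 592, 862, 756, 464 and 818 CPM in the EIC + S120 mice. In Control mice it stood at 229.6, 139, 55.6, 163 and 97.3 CPM. All 10 sparsentan-treated mice were above all 10 mice that received no sparsentan, with no overlap, whereas EIC and Control mice overlapped. Of all genes tested, 0.0643% had all 10 treated values above all 5 EIC values. The share above all 10 untreated mice was not counted. Group means of Ren1 were 191 ± 38.3 CPM in EIC, 671 ± 181 CPM in EIC + S60, 698 ± 166 CPM in EIC + S120 and 137 ± 66.0 CPM in Control (SD, n = 5 each). Ren1 took between 0.0425% and 0.0841% of all counts in treated mice, against 0.00621% to 0.0227% in EIC and Control mice. In bulk kidney RNA, more renin-producing cells and more Ren1 RNA per cell cannot be told apart.

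Akr1b7, an aldo-keto reductase, is known in the mouse kidney as a marker of renin-producing juxtaglomerular cells and is also made in the adrenal cortex. It stood at 2.17, 1.98, 2.73, 3.10 and 2.58 CPM in EIC, at 8.65, 3.23, 6.28, 3.89 and 5.09 CPM in EIC + S60, and at 3.62, 4.64, 4.09, 3.22 and 5.06 CPM in EIC + S120. Control mice had 1.94, 2.41, 1.24, 2.18 and 1.47 CPM. Again every treated mouse was above every untreated mouse, but by a narrow margin, since the lowest treated value was 3.22 CPM and the highest EIC value was 3.10 CPM. Its libraries held only 19 to 144 counts of the gene, so that counting error is a larger part of its spread than for Ren1. Mouse chromosome 6 also carries related aldo-keto reductase genes, and how the counting split reads between such copies is not given in the sources used here.

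**Figure D1:**
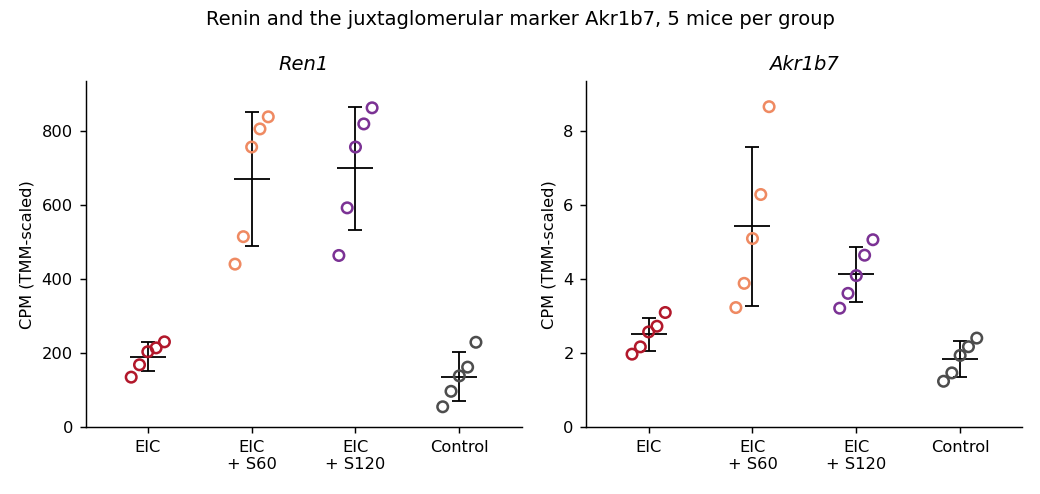
Ren1 and Akr1b7 in each mouse, in CPM scaled by TMM on a linear axis from 0. Open circles are mice, ordered by value within a group, and the horizontal bar and whiskers are the mean ± SD of 5 mice; for both genes all EIC + S60 and EIC + S120 circles lie above all EIC and Control circles.

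Both genes lie on the plus strand of GRCm38, Ren1 (ENSMUSG00000070645.5) at chr1:133350510-133360325 and Akr1b7 (ENSMUSG00000052131.7) at chr6:34412334-34423142 in GENCODE vM21. The 30 bases from -45 to -16, counted from their RefSeq start sites, are shown. For both members every treated mouse was above every untreated mouse, although edgeR did not call Akr1b7 in any comparison with EIC. Only Ren1 of the pair matches TATAAA exactly in this stretch. Capitals mark a match to TATAAA, the TATA box. The Ren1 stretch is chr1:133350629-133350658 and the Akr1b7 stretch is chr6:34412317-34412346, both from the RefSeq promoter table of GRCm38.p6.
Ren1: tgtgatacatggtgtgTATAAAagaaggct
Akr1b7: cctcctttatccaggacataaaaatgtcac

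In Ren1 the TATAAA begins at -29. Akr1b7 has no exact match to these letters on either strand in the 250 bases before its start. Its stretch reads cataaa from -29, the same position, and so differs from TATAAA there only in the first letter. Of 32851 mouse promoters of the same length, 12.4% hold TATAAA on either strand. Of the 8 members with a promoter entry, Agt (at -30), Ace (at -31) and Enpep (at -52) also hold it. In Ace and Enpep the match lies on the strand opposite to that of the gene. TGACG, the core of the cAMP response element, is in 17.8% of promoters and among the members was found only in Atp6ap2, at -62. Neither TGACGTCA, in 1.55% of promoters, nor CACGTG, in 6.02%, was found in a member's window. GENCODE starts both transcripts upstream of the RefSeq start, so the Ren1 stretch lies inside the GENCODE gene. Some mouse strains carry Ren2, a near-identical copy of Ren1. The reference genome has Ren1 alone, whether NCr nude mice carry the copy is not given in the sources used here, and reads from it would be counted as Ren1.

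Ren1 rose with sparsentan at 120 mg/kg. In EIC + S120 vs. EIC the LFC was 1.87 with an SE of 0.31 (adjusted p = 0.0261), a 3.66-fold difference with an interval of 2.32- to 5.69-fold, and 5 of 5 treated mice were above every EIC mouse. Ren1 was the only member called, 1 of 9, beside 0.0357% of all genes called higher in this comparison. Its LFC ranked 6 among the 12811 genes that averaged 1 CPM or more. Akr1b7 had an LFC of 0.72 with an SE of 0.23 (adjusted p = 0.387) and was not called, although 5 of 5 treated mice were above every EIC mouse. Groups did not overlap for these 2 of 9 members, beside 0.65% of all genes. The Ren1 call depended on single libraries. Its LFC ranged from 1.77 to 1.98 when 1 library was left out, but the adjusted p rose as far as 0.105, and the call was lost without EIC 65, 66, 67 or 69 or EIC + S120 78, 79 or 81.

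At 60 mg/kg the Ren1 difference was of similar size and was not called. In EIC + S60 vs. EIC the LFC was 1.81 with an SE of 0.31 (adjusted p = 0.187), a 3.52-fold difference with an interval of 2.21- to 5.42-fold. None of the 9 members was called, nor was any of the 13990 genes (0% called), although 846 genes (6.05%) had an unadjusted p under 0.05 by edgeR and the p of Ren1, 1.34e-05, was the smallest of them all. DESeq2 called 5 genes, of which 2 were members, Ren1 (adjusted p = 7.55e-06) and Akr1b7 (adjusted p = 0.0205). Without Control 653, which enters this comparison only through the shared estimate of spread, edgeR called Ren1 (LFC 1.81, adjusted p = 0.0148). Akr1b7 had an LFC of 1.11 with an SE of 0.23 (adjusted p = 0.370). Ren1, Akr1b7 and Agtr1a did not overlap between EIC + S60 and EIC, 3 of 9 members, beside 0.5% of all genes.

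With both doses set together against EIC, Ren1 had an LFC of 1.84 with an SE of 0.27 (adjusted p = 0.0553), above every EIC mouse in 10 of 10 treated mice. No member and no gene was called (0%) by edgeR, beside 1010 genes (7.22%) at an unadjusted p under 0.05, and DESeq2 called 28 genes including Ren1 and Akr1b7. Akr1b7 had an LFC of 0.91 with an SE of 0.20 (adjusted p = 0.253). These were the 2 of 9 members whose 10 treated values all lay above all 5 EIC values, beside 0.0643% of all genes. Without Control 653 the Ren1 call was made, with an adjusted p of 0.00392, and it was also made without Control 651 (0.0159), EIC + S60 74 (0.0442), EIC + S120 79 (0.0438) or EIC + S120 80 (0.0437).

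The doses were not separated for any member. In EIC + S120 vs. EIC + S60 the LFC of Ren1 was 0.06, with an interval of -0.58 to 0.72 (adjusted p = 0.983), so a dose difference of 0.670- to 1.64-fold lies within the error. Akr1b7 stood at 4.13 ± 0.748 CPM in EIC + S120 and 5.43 ± 2.15 CPM in EIC + S60 (SD, n = 5 each), an LFC of -0.39 with an interval of -0.80 to 0.15. The EIC + S60 mean rests partly on mouse 71 at 8.65 CPM, and the LFC was -0.16 without it. No member was called in this comparison by edgeR (0 at an unadjusted p under 0.05) or by DESeq2, beside 0.0643% of all genes called by edgeR.

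Relative to Control, which received neither complexes nor drug, both genes rose with either dose. For Ren1 the LFC reached 2.35 in EIC + S120 vs. Control (adjusted p = 0.000177) and 2.29 in EIC + S60 vs. Control (adjusted p = 0.000652), each with an SE of 0.31. For Akr1b7 it reached 1.13 in EIC + S120 vs. Control (adjusted p = 0.00631) and 1.52 in EIC + S60 vs. Control (adjusted p = 0.00120), each with an SE of 0.23. In EIC + S120 vs. Control 2 of 9 members were called higher, beside 2.89% of all genes, and 2 of 9 did not overlap, beside 2.79%. In EIC + S60 vs. Control 2 of 9 were called higher, beside 0.808%, and 2 of 9 did not overlap, beside 2.08%. The calls of both genes held in all 20 fits that left out 1 library. These comparisons differ from Control in both complexes and drug, and they share treated mice with those against EIC.

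Immune complexes alone left both genes uncalled. In EIC vs. Control Ren1 had an LFC of 0.48 with an interval of -0.04 to 1.25 (adjusted p = 0.453), and Akr1b7 had an LFC of 0.41 with an interval of -0.03 to 0.92 (adjusted p = 0.415). The Control mice varied widely, since the coefficient of variation of Ren1 was 20.1% in EIC mice and 48.2% in Control mice. Control 653 had the lowest value of all 20 mice for both genes. Without it the LFC was 0.27 for Ren1 and 0.30 for Akr1b7, whereas without the 3 deepest libraries, which include Control 651 and Control 652, that of Ren1 was 0.87, not called in either fit. The fit without the deepest libraries kept Control 653. None of the 9 members was called in EIC vs. Control by edgeR (1 at an unadjusted p under 0.05, Agtr1a) or by DESeq2, beside 2.97% of all genes called by edgeR. Of all genes, 16.8% had an unadjusted p under 0.05 by edgeR in that comparison.

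**Figure D2:**
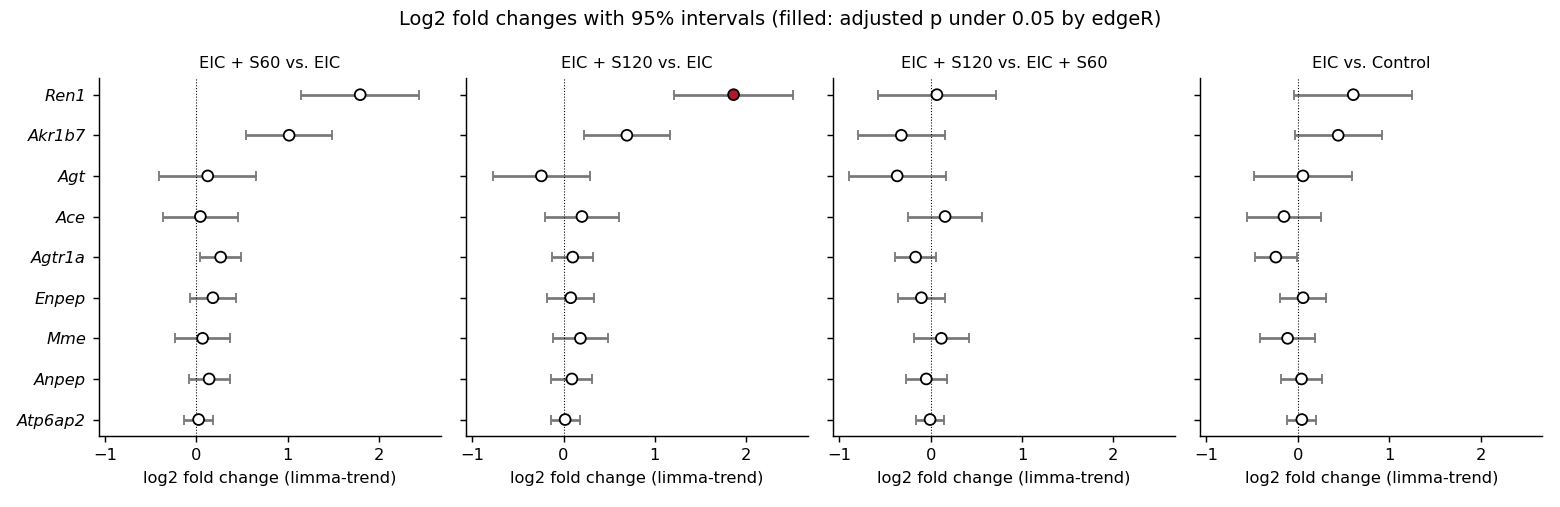
Log2 fold changes of the 9 members with 95% intervals, both from limma-trend, in 4 comparisons (horizontal axis, log2 scale). Filled circles passed the edgeR test at an adjusted p under 0.05 and open circles did not; only Ren1 in EIC + S120 vs. EIC is filled, and at both doses against EIC the intervals of Ren1 and Akr1b7 lie wholly above 0.

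Ren1 and Akr1b7 also varied together between mice of the same group. With each group's mean taken off log2 CPM, Pearson's r was 0.76 over 20 mice (p = 0.00022 by permutation of mice within groups, adjusted p = 0.00176 over 8 relations) and Spearman's rho was 0.80 (adjusted p = 0.00344). Without the 2 mice farthest from the median of Ren1, r was 0.83, and with any 1 mouse left out it stayed between 0.73 and 0.83. Of the other 7 members none passed for Ren1, with adjusted p of 0.187 or more. Agtr1a had an r of 0.62, and this value rested on Control 653, since r was 0.21 without it. Anpep likewise had an r of 0.56, and 0.27 without Control 653.

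**Figure D3:**
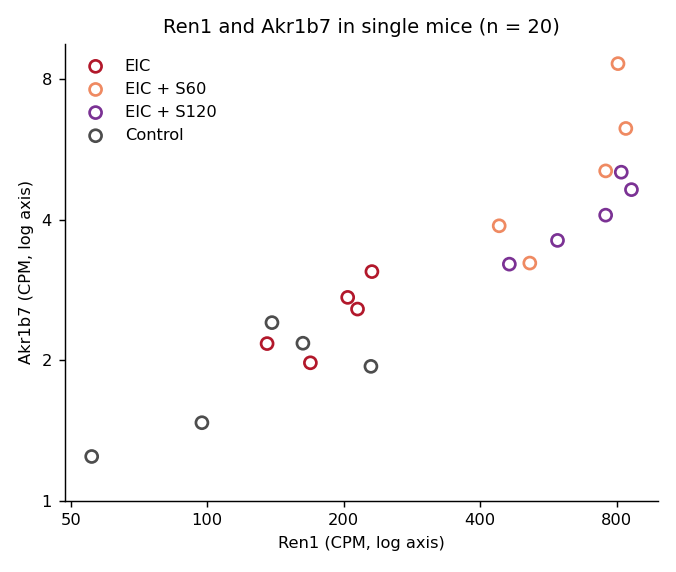
Akr1b7 against Ren1 in the 20 mice, both in CPM on log axes, colored by group. Treated mice lie in the upper right, from 440.3 to 862 CPM of Ren1 and 3.22 to 8.65 CPM of Akr1b7, and mice with more Ren1 within a group tended to have more Akr1b7.

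Across all genes that averaged 1 CPM or more, the pattern most like that of Ren1 over the 20 libraries was that of Akr1b7 among 12810 compared, with a Pearson r of 0.92 on log2 CPM, and the reverse held as well. This likeness includes the differences between the groups, both with treatment and between EIC and Control, so it is a description without a test. The next in order for Ren1 were Mgp, which encodes matrix Gla protein, an inhibitor of vascular calcification (r 0.88), the adhesion receptor gene Adgrl1 (0.83), the semaphorin and VEGF co-receptor gene Nrp1 (0.82) and the neuroserpin gene Serpini1 (0.82). For Akr1b7 they were Mgp (0.86), Serpini1 (0.79), Xrcc6bp1 (0.78) and the phosphatase gene Ptp4a3 (0.77). Nrp1 (LFC 0.41, adjusted p = 0.0232) and Ptp4a3 (LFC 0.66, adjusted p = 0.0415) were called in EIC vs. Control, beside 2.97% of all genes. Their LFCs from EIC were smaller and not called, 0.24 for each at 60 mg/kg, and 0.16 and 0.015 at 120 mg/kg. The other genes named here were not called in EIC vs. Control. Mgp averaged 27.4 ± 10.7 CPM in EIC mice, 49.9 ± 14.3 CPM in EIC + S60 mice and 56.0 ± 10.6 CPM in EIC + S120 mice (SD, n = 5 each), and it was not called in either comparison with EIC (adjusted p = 0.738 at 60 mg/kg and 0.236 at 120 mg/kg).

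The ratio of Ren1 to Akr1b7 rose with both doses. The log2 ratio of Ren1 to Akr1b7 counts within a mouse, which does not depend on library scaling, averaged 6.98 ± 0.31 in EIC + S60 and 6.22 ± 0.18 in EIC (SD, n = 5 each), a difference of 0.76. In EIC + S120 it averaged 7.37 ± 0.15, a difference of 1.15 from EIC. Both differences had an exact permutation p of 0.00794 (two-sided, the smallest that 5 against 5 mice allow, adjusted p = 0.0179 over 9 ratio comparisons), with 5 of 5 treated mice above every EIC mouse. In EIC vs. Control the difference was 0.15 (exact permutation p = 0.579). The ratio of Ren1 to Agt counts was higher by 1.66 in EIC + S60 vs. EIC and by 2.11 in EIC + S120 vs. EIC, each with 5 of 5 treated mice above every EIC mouse (exact permutation p = 0.00794, adjusted p = 0.0179).

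Other genes of renin-producing cells were followed in a list. Of 16 genes known from juxtaglomerular or renin-lineage cells, 15 were tested and 0 were called by edgeR in either comparison with EIC, where 0% and 0.0572% of all genes were called. In each, 1 of the 15 had an unadjusted p under 0.05, beside 6.05% of all genes at 60 mg/kg and 8.45% at 120 mg/kg. The median LFC of the 15 was 0.13 at 60 mg/kg and 0.07 at 120 mg/kg, and it was not tested against the LFC of Ren1 or Akr1b7. Their summed level was 208 to 293 CPM in EIC mice, 240.8 to 302 CPM in EIC + S60 mice and 231 to 283 CPM in EIC + S120 mice. Gja5, which encodes the connexin that couples juxtaglomerular cells, averaged 5.59 ± 1.57 CPM in EIC mice, 7.05 ± 1.06 CPM in EIC + S60 mice and 7.03 ± 1.38 CPM in EIC + S120 mice (SD, n = 5 each), with LFCs from EIC of 0.34 at 60 mg/kg (adjusted p = 0.827) and 0.33 at 120 mg/kg (adjusted p = 0.646). Cacna1c, a voltage-gated calcium channel subunit, had the smallest p of the list at 60 mg/kg, with an LFC of 0.81 (adjusted p = 0.738), and Adra1a, an adrenergic receptor, at 120 mg/kg, with an LFC of 0.46 (adjusted p = 0.484).

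All 10 smooth muscle and mural cell markers were tested and 0 were called in either comparison with EIC. In each, 1 of the 10 had an unadjusted p under 0.05 by edgeR, beside 6.05% of all genes at 60 mg/kg and 8.45% at 120 mg/kg. The summed level of these markers was 159 to 256 CPM in EIC mice, 181 to 276 CPM in EIC + S60 mice and 186 to 250.4 CPM in EIC + S120 mice. Adrenal markers were followed because the adrenal cortex also makes Akr1b7, and a part of adrenal tissue in its levels was not tested. Of 8 such markers 5 were listed, and only 2 of them passed the count minimum. The 5 summed to between 2.31 and 3.67 CPM over the 20 libraries, with highest sums of 3.47 CPM in EIC mice, 3.49 CPM in EIC + S60 mice and 3.10 CPM in EIC + S120 mice. Cyp11b1, which completes corticosterone synthesis, was at 0 in every library but EIC 65. EIC 65 had at least 1 count for every listed gene, so a Cyp11b1 count there is not particular to an adrenal marker.

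Agt encodes angiotensinogen, the substrate of renin, which in circulation comes mainly from liver. It was sparsely counted in these kidneys, with 19 to 111 counts per library. Means were 2.19 ± 0.618 CPM in EIC, 2.37 ± 0.565 CPM in EIC + S60, 1.88 ± 0.701 CPM in EIC + S120 and 2.10 ± 0.590 CPM in Control (SD, n = 5 each), and all groups overlapped. The LFC was 0.11 in EIC + S60 vs. EIC, with an interval of -0.41 to 0.66, and -0.22 in EIC + S120 vs. EIC, with an interval of -0.78 to 0.29. The gene lies at chr8:124556534-124569706 on the minus strand.

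Ace encodes angiotensin-converting enzyme. Its values in EIC mice were 352, 168, 257, 164 and 374 CPM, so EIC mice spread 2.28-fold between the lowest and the highest, around every other group. EIC + S60 mice had 241, 275, 219, 313 and 239.6 CPM, EIC + S120 mice 296, 228, 335, 301 and 277 CPM, and Control mice 267, 301, 241, 315 and 259 CPM. The coefficient of variation was 37.6% in EIC, 14.3% in EIC + S60, 13.6% in EIC + S120 and 11.1% in Control. The spread was not tested between groups. The LFC was -0.03 in EIC + S60 vs. EIC, 0.13 in EIC + S120 vs. EIC and -0.07 in EIC vs. Control, with adjusted p of 0.898 or more in each.

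Agtr1a encodes the main angiotensin II type 1 receptor of the mouse, a target of sparsentan. It stood at 43.4, 43.5, 41.3, 38.7 and 44.9 CPM in EIC, at 57.7, 46.6, 50.3, 49.7 and 50.6 CPM in EIC + S60, and at 42.3, 42.4, 52.4, 45.8 and 44.7 CPM in EIC + S120. Control mice had 59.9, 52.0, 33.8, 53.3 and 55.5 CPM. All EIC + S60 mice were above all EIC mice, whereas EIC + S120 mice overlapped them. The LFC was 0.27 with an interval of 0.04 to 0.49 in EIC + S60 vs. EIC (adjusted p = 0.755) and 0.10 with an interval of -0.13 to 0.33 in EIC + S120 vs. EIC (adjusted p = 0.824), so the receptor transcript was not called at either dose.

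Of 5 Control mice, 4 were above every EIC mouse for Agtr1a and Control 653 was below them all. In EIC vs. Control the LFC was -0.27 with an SE of 0.11 (adjusted p = 0.193). Without Control 653 it was -0.38 (adjusted p = 0.00583), and Agtr1a was then the 1 member called in EIC vs. Control. That comparison called 2.97% of all genes in the main fit, and 233 to 465 genes when 1 library was left out. In EIC + S120 vs. Control the LFC was -0.16 (adjusted p = 0.410), and without Control 653 it was -0.28 (adjusted p = 0.0238). The high adipocyte markers of that library stand beside these values, and their part in the result was not tested. Without the 3 deepest libraries the Agtr1a LFC in EIC vs. Control was -0.15 (adjusted p = 0.617). That fit left out Control 651 and Control 652, which were above every EIC mouse, and kept Control 653.

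The peptidases that break down angiotensins lie mostly on the brush border of the proximal tubule. Enpep encodes aminopeptidase A, which trims angiotensin II to angiotensin III. Its means were 181 ± 24.0 CPM in EIC, 205 ± 31.2 CPM in EIC + S60, 191 ± 23.4 CPM in EIC + S120 and 174 ± 25.7 CPM in Control (SD, n = 5 each), with LFCs from EIC of 0.18 at 60 mg/kg (interval -0.08 to 0.44) and 0.08 at 120 mg/kg (interval -0.18 to 0.33). Both intervals include 0, and neither difference was called.

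Anpep encodes aminopeptidase N, which acts on angiotensin III. Its means were 185 ± 15.5 CPM in EIC, 204 ± 23.5 CPM in EIC + S60, 196 ± 13.8 CPM in EIC + S120 and 182 ± 34.6 CPM in Control (SD, n = 5 each). The LFC was 0.14 in EIC + S60 vs. EIC, with an interval of -0.08 to 0.36, and 0.09 in EIC + S120 vs. EIC, with an interval of -0.13 to 0.31.

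Mme encodes neprilysin, which cuts angiotensin I to angiotensin-(1-7) and also degrades natriuretic peptides. It stood at 565, 391, 431, 308 and 597 CPM in EIC mice. The EIC mice low for Ace, 66 and 68, were also the 2 lowest of their group for Mme, and the EIC mice high for Ace, 65 and 69, were its 2 highest. Means were 458 ± 121.0 CPM in EIC, 470.5 ± 72.7 CPM in EIC + S60, 509 ± 56.1 CPM in EIC + S120 and 482 ± 41.2 CPM in Control (SD, n = 5 each). The LFC from EIC was 0.04 at 60 mg/kg (interval -0.23 to 0.36) and 0.15 at 120 mg/kg (interval -0.11 to 0.48).

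Atp6ap2 encodes the (pro)renin receptor, an accessory subunit of the vacuolar proton pump that also binds renin and prorenin. It had the narrowest interval of the 9 in each comparison with EIC. Means were 154 ± 19.2 CPM in EIC, 156 ± 12.6 CPM in EIC + S60, 155 ± 9.04 CPM in EIC + S120 and 148 ± 8.41 CPM in Control (SD, n = 5 each). The LFC was 0.02 in EIC + S60 vs. EIC, with an interval of -0.13 to 0.18, and 0.01 in EIC + S120 vs. EIC, with an interval of -0.14 to 0.18. The gene lies on chromosome X, at chrX:12587801-12617049.

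**Figure D4:**
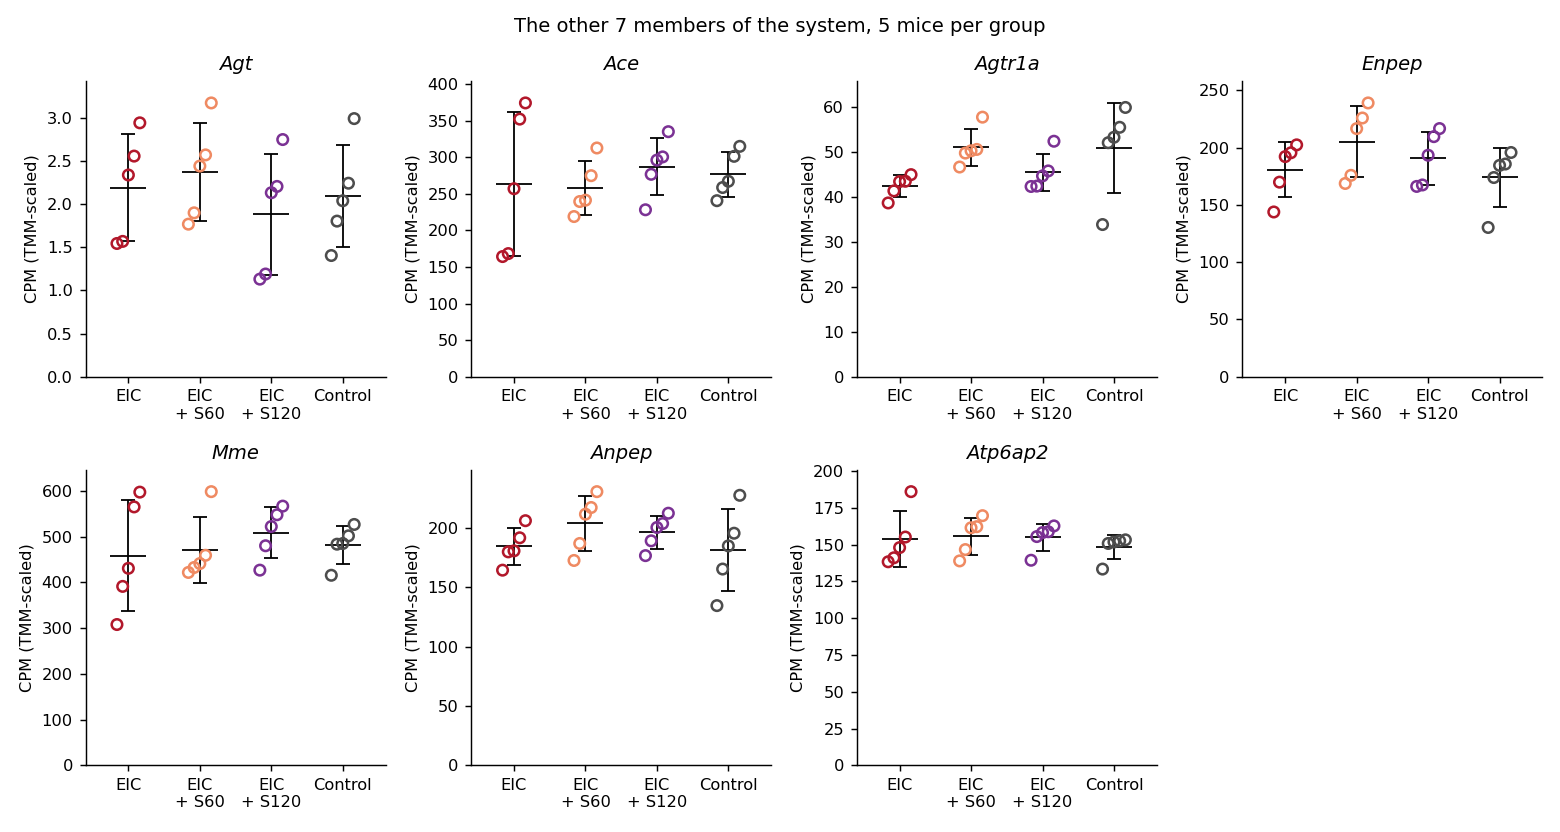
The other 7 members in each mouse, in CPM scaled by TMM on linear axes from 0, each gene on its own scale. Open circles are mice and bars with whiskers are the mean ± SD of 5 mice; EIC + S60 and EIC mice overlap for every gene except Agtr1a, where all EIC + S60 mice (46.6 CPM or more) lie above all EIC mice (44.9 CPM or less), and the low Control circle for Agtr1a is Control 653 at 33.8 CPM.

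Over these 7 members, LFCs lay between -0.03 and 0.27 in EIC + S60 vs. EIC and between -0.22 and 0.15 in EIC + S120 vs. EIC, with adjusted p of 0.755 or more at 60 mg/kg and 0.807 or more at 120 mg/kg. Over all 9 members the median LFC was 0.14 at 60 mg/kg and 0.10 at 120 mg/kg, beside medians near 0 over all genes tested (-0.0017 and 0.0016). Levels of different genes can be roughly compared per kilobase of exon, where the length joins the exons of all annotated transcripts. The transcripts made in kidney may be shorter. On this scale Ren1 had the highest mean level of the 9 in each group. It stood at 115 ± 23.1 CPM per kb in EIC, 405 ± 109 in EIC + S60, 421 ± 100.5 in EIC + S120 and 82.6 ± 39.8 in Control (SD, n = 5 each). In EIC the order then ran Atp6ap2 (58.7), Ace (49.8), Anpep (44.6), Mme (39.7), Enpep (38.4), Agtr1a (15.2), Akr1b7 (1.96) and Agt (1.16 CPM per kb). From Atp6ap2 to Enpep, neighbors in this order differed by less than the SD of Ace between EIC mice, 18.7 CPM per kb.

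The wider pathway was followed in a list of 20 further genes of angiotensin processing and signaling, of which 12 were listed in the tables and 11 tested. Among them 0 were called in EIC + S60 vs. EIC (2 with an unadjusted p under 0.05), in EIC + S120 vs. EIC (2) or in EIC vs. Control (3). Of all genes, 6.05%, 8.45% and 16.8% had an unadjusted p under 0.05 by edgeR in these comparisons, in that order. The median LFC of the 11 was 0.11 at 60 mg/kg and 0.0057 at 120 mg/kg from EIC, and -0.01 in EIC vs. Control, beside medians of -0.0017, 0.0016 and -0.0099 over all genes. Mas1, the receptor for angiotensin-(1-7), was listed but fell under the count minimum.

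Prcp, which encodes prolylcarboxypeptidase, a lysosomal enzyme that can convert angiotensin II to angiotensin-(1-7), was called once. It stood at 106, 126, 124, 142 and 128 CPM in EIC + S120, against 99.3, 76.4, 62.7, 74.1 and 75.1 CPM in Control, with no overlap. The LFC in EIC + S120 vs. Control was 0.68 with an SE of 0.12 (adjusted p = 0.00103). Prcp was the 1 gene called there of the 11 tested, beside 2.89% of all genes called higher and 2.79% higher without overlap. In EIC mice it stood at 88.7, 116, 80.3, 88.3 and 92.6 CPM, which overlap both groups, and the LFC in EIC + S120 vs. EIC was 0.42 with an SE of 0.12 (adjusted p = 0.273). EIC + S60 mice had 93.6, 82.1, 105, 115 and 111 CPM, and the LFC in EIC + S60 vs. Control was 0.39 (adjusted p = 0.120).

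Lnpep, the insulin-regulated aminopeptidase that binds angiotensin IV, averaged 17.0 ± 1.66 CPM in EIC and 23.7 ± 4.90 CPM in Control (LFC -0.49, adjusted p = 0.111). In EIC + S60 Lnpep averaged 23.8 ± 5.11 CPM, an LFC of 0.49 from EIC (adjusted p = 0.738). Dpp3, a cytosolic peptidase that degrades angiotensin II, had an LFC of -0.17 in EIC vs. Control (adjusted p = 0.150).

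**Figure D5:**
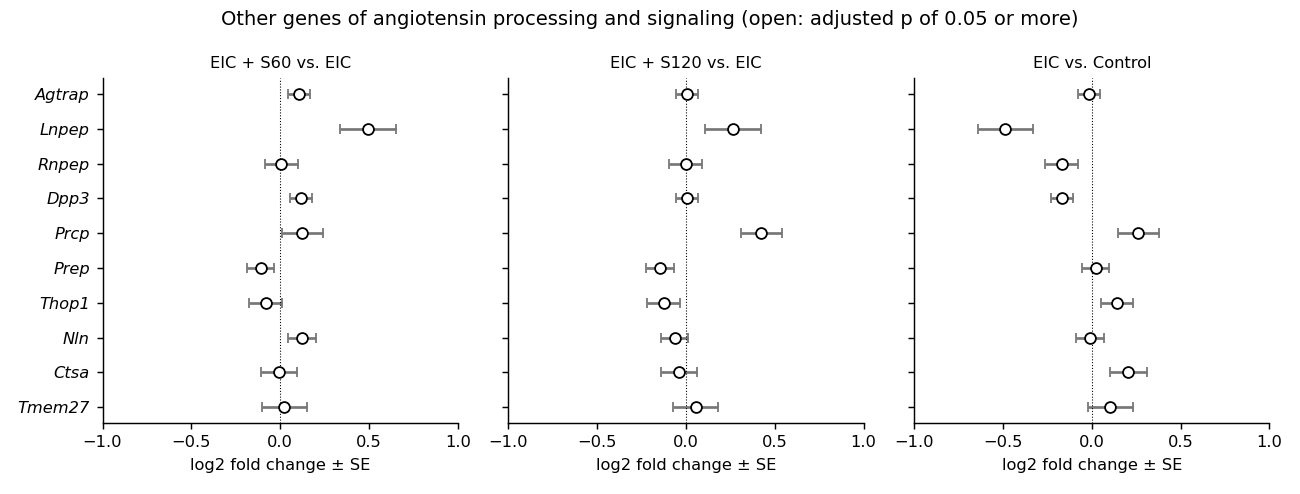
Log2 fold changes (horizontal axis, edgeR) ± SE of 10 of the 11 tested genes of the wider pathway list in 3 comparisons. All circles are open, since none passed an adjusted p under 0.05 in these comparisons; Lnpep lies at 0.49 in EIC + S60 vs. EIC and at -0.49 in EIC vs. Control, and Prcp at 0.42 in EIC + S120 vs. EIC.

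Genes that act upstream of renin transcription were examined in a list of 23, of which 22 were tested. They cover the beta-adrenergic receptor, the cAMP and protein kinase A cascade, natriuretic peptide receptors and nuclear factors known to act on the renin promoter. None was called by edgeR in EIC + S60 vs. EIC (1 with an unadjusted p under 0.05), EIC + S120 vs. EIC (2) or EIC vs. Control (2). Over all genes the shares under that unadjusted p were 6.05%, 8.45% and 16.8%, in the same order. The smallest p values belonged to Npr3, a natriuretic peptide clearance receptor, at 60 mg/kg (LFC 0.42, adjusted p = 0.755), to Creb1, a cAMP-responsive transcription factor, at 120 mg/kg (LFC 0.19, adjusted p = 0.518), and to Nr2f6, a nuclear receptor, in EIC vs. Control (LFC -0.21, adjusted p = 0.0806).

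All 4 macula densa genes, which signal tubular salt to renin cells, were tested and 0 were called in these comparisons. At an unadjusted p under 0.05 by edgeR there were 0 in either comparison with EIC. In EIC vs. Control there were 2 of 4, beside 16.8% of all genes. The 4 listed genes of the kallikrein-kinin system, whose kinins angiotensin-converting enzyme also degrades, gave 0 calls and 0 at an unadjusted p under 0.05 in these comparisons. Kng1, a kininogen gene, had the smallest p at both doses, with LFCs of -0.36 at 60 mg/kg (adjusted p = 0.905) and -0.30 at 120 mg/kg (adjusted p = 0.849).

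Downstream, 13 genes of the aldosterone response were tested, and 0 were called in EIC + S60 vs. EIC (1 with an unadjusted p under 0.05), EIC + S120 vs. EIC (3) or EIC vs. Control (1). Over all genes the shares under that unadjusted p by edgeR were 6.05%, 8.45% and 16.8%, in the same order. Scnn1a, the alpha subunit of the epithelial sodium channel, had LFCs of -0.32 (adjusted p = 0.734) at 60 mg/kg and -0.26 (adjusted p = 0.405) at 120 mg/kg. Slc12a3, the thiazide-sensitive sodium chloride cotransporter, had LFCs of -0.42 at 60 mg/kg (adjusted p = 0.844) and -0.63 at 120 mg/kg (adjusted p = 0.517). Sgk1, a kinase that aldosterone induces, averaged 172 ± 83.3 CPM in EIC mice, 134 ± 80.9 CPM in EIC + S60 mice and 392 ± 216 CPM in EIC + S120 mice (SD, n = 5 each). Its LFC was 1.19 in EIC + S120 vs. EIC (adjusted p = 0.564), the largest of the list there and opposite in sign to those of Scnn1a and Slc12a3, and 1.55 in EIC + S120 vs. EIC + S60 (adjusted p = 0.418). Tsc22d3, which responds to both glucocorticoids and aldosterone, was the 1 gene of the 13 called in EIC + S120 vs. Control, beside 5.55% of all genes. Its LFC was 1.58 there with an SE of 0.39 (adjusted p = 0.0252), and 0.47 in EIC + S120 vs. EIC (adjusted p = 0.775). Most of the list went the other way in EIC + S120 vs. Control, with a median LFC of -0.23 and 5 of 13 LFCs above 0. In that comparison 8 of 13 had an unadjusted p under 0.05 by edgeR, beside 20% of all genes.

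Of 8 other brush border peptidases 7 were tested, and 0 were called in any of these 3 comparisons, with 0 at an unadjusted p under 0.05. Enpp3 had the smallest p of the list in both comparisons with EIC, with LFCs of 0.17 at 60 mg/kg (adjusted p = 0.857) and 0.23 at 120 mg/kg (adjusted p = 0.625). Macrophage markers are given for contrast: 5 of 8 were called higher in EIC vs. Control, beside 1.61% of all genes, and their sum was 95.7 to 255 CPM in EIC and 78.3 to 102 CPM in Control. Their sum was 84.1 to 132 CPM in EIC + S60 and 86.5 to 120.1 CPM in EIC + S120. In the comparisons with EIC the LFC was negative for 8 of 8 genes at each dose and 0 were called (4 at an unadjusted p under 0.05 at 60 mg/kg, beside 6.05% of all genes, and 6 at 120 mg/kg, beside 8.45%), and their part in the Ren1 result was not tested.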

How the data were processed

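Each library is poly(A)-selected RNA of 1 mouse. The authors used Trimmomatic 0.36 for trimming, STAR 2.5.2b for alignment to GRCm38 and featureCounts (Subread 1.5.2) for counting, and deposited unnormalized counts by gene. No source used here gives the annotation or the strand setting. EIC 65 had at least 1 count for each of the 15780 listed genes, against 234 to 654 genes at 0 in the other 19 libraries, and a gene without a row was not analysed here.

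Groups came from the labels. The 13990 genes that reached 10 counts in 5 or more libraries were fitted by edgeR 4.0.16 (quasi-likelihood, robust, TMM) over all 20 libraries with 1 coefficient per group, two-sided, with Benjamini-Hochberg adjustment over all genes. SEs and intervals came from limma 3.58.1 (limma-trend, prior count 2). Ratios (counts plus 0.5) used exact permutation tests, and correlations 100000 permutations within groups. Alternatives were other scalings and filters, DESeq2 1.42.0, limma-voom, fewer libraries in the fit, and each library left out. Code was tested on simulated data. Exon lengths came from GENCODE vM21. Certain list genes were matched by older symbols. A gene of the wider pathway list, and a ratio that used it, entered the counts and the adjustment and is not reported here. The members, the lists and the rule for naming genes (all members; from each pathway list the called genes and up to 4 with the smallest p; the 5 genes most like Ren1 and Akr1b7) were chosen with earlier results of these data known.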

Additional observations from a re-analysis of the deposited data

Results flagged for a closer look

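Each of the 9 members was examined for a single mouse far from the others in each of the 4 groups, 36 sets of 5 values, and 2 were found; chance alone gives about 1 in 20. Atp6ap2 in Control 653 was 133 CPM, below the other 4 Control mice, the nearest of which was at 151 CPM. Mme in EIC + S60 74 was 598 CPM, above the other 4 EIC + S60 mice, the nearest of which was at 459 CPM. Neither gene was called in any comparison.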

How the results depend on the processing

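Ren1 and Akr1b7 kept their direction and their calls against Control under every scaling, filter, tool and left-out library tried, with adjusted p between 6.2e-05 and 0.00307 for Ren1 over the 20 fits that each left out 1 library and between 0.000542 and 0.0228 for Akr1b7. The Ren1 call in EIC + S120 vs. EIC held under every setting other than a left-out library, where its adjusted p lay between 0.00541 and 0.105. In EIC + S60 vs. EIC edgeR called Ren1 when only the compared libraries were fitted (adjusted p = 0.0444) and DESeq2 called it (7.55e-06). With both doses against EIC, Ren1 was called with a filter of 1 CPM (0.0481), by limma-voom (0.0484), by DESeq2 (3.65e-09) and with only the compared libraries (0.00234). The causes of these changes were not tested. Replicates are single mice, Akr1b7 and Agt rest on few counts, and 5 mice a group leave intervals of Ren1 that span more than 1 log2 unit. No paired analysis was possible because the mouse numbers of the groups differ. All alternatives were planned, but the members and lists were chosen with earlier results of these data known.

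In EIC + S120 vs. EIC the number of genes called was 5 with RLE scaling, 5 with no filter, 64 by DESeq2 and 2 with only the compared libraries. In EIC vs. Control it was 689 by DESeq2, 143 with only the compared libraries and 135 without the deepest libraries. In EIC + S60 vs. EIC it was 5 by DESeq2, of which 2 were members, and 1 with only the compared libraries, which was a member. With both doses against EIC it was 1 with the 1 CPM filter, 1 by limma-voom and 1 with only the compared libraries, a member in each, and 28 by DESeq2, of which 2 were members. In EIC + S60 vs. Control it was 348 by DESeq2 and 87 without the deepest libraries. In EIC + S120 vs. EIC + S60 it was 83 by DESeq2 and 5 without the deepest libraries.

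LFCs near 0 turned sign in some settings. Atp6ap2 in EIC + S120 vs. EIC was -0.0042 with upper-quartile scaling. Agtr1a in EIC + S60 vs. Control was 0.0049 with upper-quartile scaling, 0.00015 with the 1 CPM filter, 0.024 by limma-voom and 0.11 without the deepest libraries. Ace in EIC + S60 vs. EIC was 0.051 by limma-voom, and Mme in EIC + S60 vs. Control was 0.017 without the deepest libraries.

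With 1 library left out in turn, EIC vs. Control gave 233 to 465 called genes and 0 to 1 members, with LFCs of -0.072 to 0.26 for Agt, -0.23 to 0.072 for Ace, -0.033 to 0.13 for Enpep, -0.19 to 0.052 for Mme, -0.068 to 0.13 for Anpep and -0.012 to 0.10 for Atp6ap2. EIC + S60 vs. EIC gave 0 to 1 called genes and 0 to 1 members, with LFCs of -0.017 to 0.24 for Agt, -0.17 to 0.13 for Ace, -0.087 to 0.15 for Mme and -0.025 to 0.083 for Atp6ap2. EIC + S120 vs. EIC gave 1 to 14 called genes and 0 to 1 members, with LFCs of -0.013 to 0.29 for Ace and -0.030 to 0.079 for Atp6ap2. Both doses against EIC gave 0 to 3 called genes and 0 to 1 members, with LFCs of -0.16 to 0.077 for Agt, -0.093 to 0.21 for Ace, -0.029 to 0.21 for Mme and -0.028 to 0.081 for Atp6ap2.

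In the same fits EIC + S60 vs. Control gave 103 to 224 called genes, with LFCs of -0.12 to 0.068 for Agtr1a and -0.14 to 0.00078 for Mme. EIC + S120 vs. Control gave 489 to 1172 called genes, with LFCs of -0.33 to 0.035 for Agt and -0.0019 to 0.13 for Ace. EIC + S120 vs. EIC + S60 gave 2 to 54 called genes, with LFCs of -0.055 to 0.18 for Ren1, -0.11 to 0.00062 for Anpep and -0.046 to 0.028 for Atp6ap2. The log2 ratio of Ren1 to Akr1b7 in EIC vs. Control differed by -0.0081 to 0.35, and the correlation of Ren1 with Agt was -0.17 to 0.11.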
